A study of Mus musculus with 2 samples.

Results

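The genes described here encode the subunits of the proteasome, of its interferon-inducible form, the immunoproteasome, and of the activators that bind them. They were chosen by symbol and biotype alone, as the protein-coding genes named Psma, Psmb, Psmc, Psmd or Psme with a number, which gave 43 of the 45777 genes in the table. The RNA was that of YTN16 cells, a gastric cancer line of the mouse. The shGas6 culture carried a short hairpin RNA against Gas6 (its genotype is labelled Gas6 knockdown), and the shControl culture carried a control hairpin (its genotype is labelled WT). Both were kept in DMEM with fetal bovine serum, a serum extender and antibiotics, and whether each culture was a clone or a pool is not stated. GAS6 is a secreted ligand of the receptor AXL, and the series asks how this pathway bears on the response to immunotherapy.

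Each culture gave 1 poly(A) library, with 51807140 counts in shGas6 and 50756676 in shControl. No test was possible on 1 library a group, so every value below compares these 2 libraries alone. The 95% intervals given in brackets reflect counting error and nothing else. In bulk RNA, fewer cells that use a gene and less of its RNA per cell cannot be told apart. Gas6 had 731 counts in shGas6 and 2480 in shControl, so its level was 29.0% of control (26.6% to 31.5%). Of 5 epithelial markers, Krt8, Krt18, Krt19 and Cdh1 were present in both libraries and summed, with Epcam, to 6846 CPM (counts per 1000000, after TMM scaling of the libraries) in shGas6 and 4436 in shControl. Epcam was at 0.503 CPM in shGas6 and 0.629 in shControl.

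The proteasome degrades proteins tagged with ubiquitin. Its 20S core is a stack of alpha rings (Psma genes) around beta rings (Psmb genes), and the catalytic sites lie on the beta subunits encoded by Psmb5, Psmb6 and Psmb7. Interferon induces Psmb8, Psmb9 and Psmb10, whose products take the places of these subunits in newly built cores and favour peptides that fit MHC class I. The 19S regulatory particle, with a base of ATPases (Psmc) and a lid (Psmd), unfolds substrates and feeds them in. Psme1 and Psme2 encode PA28 alpha and beta, an interferon-inducible activator that opens the core without ubiquitin.

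Short stretches from the windows around the transcription starts are shown here because the inducible and the constitutive subunits are known targets of different factors. RefSeq promoter windows (GRCm38.p6, 250 bases before to 50 after a start) were held for 36 of the 43 genes, and 3 motifs were searched on both strands. They were the interferon-stimulated response element (GAAA, any 2 bases, then GAAA), bound by interferon regulatory factors, the gamma-activated site (TTCNNNGAA), an element of the interferon gamma response, and the antioxidant response element (TGACNNNGC), bound by NRF1 and NRF2 with small Maf proteins. Each line reads 5′ to 3′ on the gene's strand, and capitals mark the match, which may be the reverse complement of the motif. The first pair are the only matches of the interferon motifs in the windows of the 5 inducible genes, and the second pair are the antioxidant elements of Psmb5 and Psmb6. No window was held for Psmb7, the remaining constitutive catalytic gene, which was therefore not searched.
Psmb8, gamma-activated site, chr17:34198088-34198117, plus strand: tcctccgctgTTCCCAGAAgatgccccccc
Psme1, interferon-stimulated response element, chr14:55578493-55578522, plus strand: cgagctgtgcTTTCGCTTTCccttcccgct
Psmb6, antioxidant response element, chr11:70525338-70525367, plus strand: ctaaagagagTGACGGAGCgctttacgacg
Psmb5, antioxidant response element, chr14:54618023-54618052, minus strand: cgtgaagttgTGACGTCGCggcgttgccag
The match began 97 bases before the RefSeq start in Psmb8, 9 before it in Psmb6 and 47 before it in Psmb5. For Psmb6 the window is set on a start at base 70525357, which lies inside the bounds that RefSeq lists for the gene. In Psme1 the match began at base 10 of the transcript.

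Across all 36 genes with a window, the interferon-stimulated response element was found in 4 (11.1%), against 3.44% of 32851 windows of all genes. The shares are in unlike units. A subunit gene counted if any of its windows matched, and 3 had more than 1 window, whereas the background counts single windows. These 4 were Psme1, Psmb3, Psmd4 and Psmd9. The gamma-activated site was found in Psmb8 and Psmd2 (5.56% of the subunit genes, against 8.30% of all windows). The antioxidant response element was found in 6 (16.7%, against 12.4% of all windows), namely Psmb5, Psmb6, Psmc6, Psmd9, Psmd12 and Psme4. A match is a description of letters and not a binding site.

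Of the 43 genes, 41 were measured, meaning 1 CPM or more in at least 1 library, and each of these passed in both libraries. Psma8, the alpha subunit of the testis, was at 0 in each library. A count of 0 allows a level of up to 0.0580 CPM in shGas6 and 0.0590 CPM in shControl. Psmb11, the catalytic subunit of the thymus, had 2 counts in shGas6 and 1 in shControl. These tissue-restricted forms were thus at or below 3 counts.

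The 5 inducible subunits had the lowest ratios of all the subunits, followed by Psmd10, Psmd9 and Psma2. At 2-fold or more, 2 of 41 measured subunits were lower in shGas6, Psmb8 and Psmb9, where the same held for 6.21% of all 13367 measured genes. None was 2-fold higher, where 8.66% of all genes were. At 1.5-fold, 6 were lower (12.6% of all genes) and none higher (16.1%). These 6 were the 5 inducible genes and Psmd10. At 1.2-fold, 10 were lower (28.4%) and none higher (29.6%). Psmd14 was just short of this mark, at 1.1995-fold higher, so the absence of higher subunits depends on the scaling. By the deposited TPM, a level corrected for transcript length, Psmd14, Psmd3 and Psmc4 passed it, at 124%, 123% and 121% of control. On the lower side by TPM, Psma3 passed it at 70.0%, and Psma6 and Psmb5 did not, at 84.2% and 86.0%. Against all measured genes, the counts of lower subunits were near the background at 2-fold and 1.5-fold. The other background used here is the 4834 genes that averaged 50 CPM or more. Of these, 1.86% were lower and 4.01% higher at 2-fold, 6.93% were lower and 10.2% higher at 1.5-fold, and 23.9% were lower and 24.0% higher at 1.2-fold. It covers 36 of the 41 subunits, of which none was lower at 2-fold, 2 at 1.5-fold (Psme1 and Psme2) and 5 at 1.2-fold. It does not cover Psmb8, Psmb9, Psmb10, Psmd9 and Psmd10, which averaged less. The median log2 ratio (shGas6 over shControl) of the 41 was -0.09, beside -0.01 over all measured genes. It was -0.91 over the 5 inducible genes and -0.07 over the 36 that are not inducible.

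**Figure D1:**
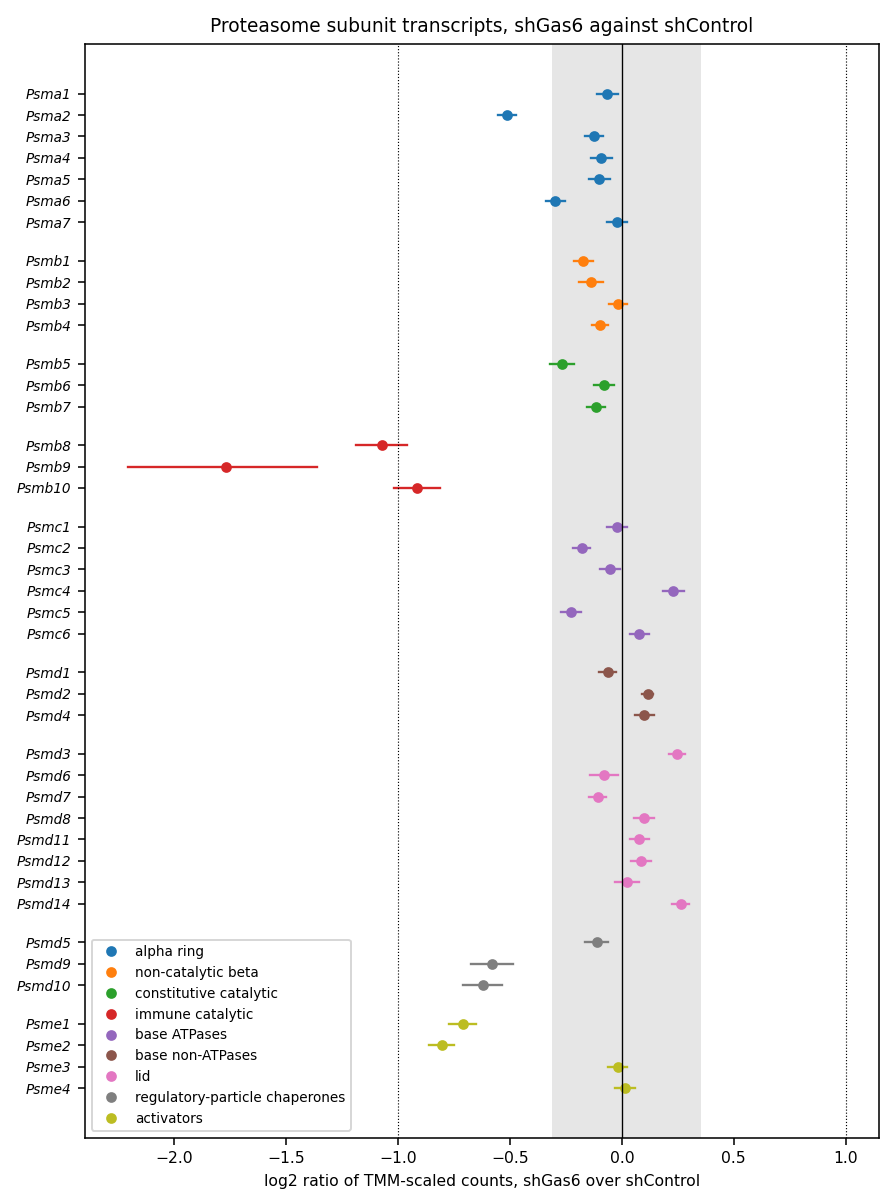
Log2 ratio of TMM-scaled counts, shGas6 over shControl, for the 41 measured subunits, grouped by role. Points are ratios, bars are 95% counting intervals, dotted lines mark 2-fold and the grey band holds the central 50% of all measured genes. Psmb8, Psmb9, Psmb10, Psme1, Psme2, Psmd9, Psmd10 and Psma2 lie left of the band, and no subunit lies right of it.

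Among the inducible catalytic subunits, Psmb9 (beta1i, also called LMP2; chromosome 17, 34182030 to 34187330) had the largest relative difference and the lowest level. It had 63 counts in shGas6 and 212 in shControl, or 1.22 and 4.17 CPM, which put shGas6 at 29.2% of control (21.7% to 38.9%). Psmb8 (beta5i, LMP7; chromosome 17, 34198195 to 34201454) had 938 counts in shGas6 and 1939 in shControl. Its level was 47.6% of control (43.9% to 51.4%), so the interval reached across the 2-fold mark. Psmb10 (beta2i, MECL-1; chromosome 8, 105935728 to 105938392) had 1189 counts in shGas6 and 2202 in shControl. At 53.1% of control (49.4% to 57.0%), it lay just short of 2-fold. All 3 were lower in shGas6 by more than their counting error.

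The constitutive counterparts were present at far higher and closer levels. Psmb5, the chymotrypsin-like site (chromosome 14, 54614120 to 54617995), had 5374 counts in shGas6 and 6356 in shControl, at 83.1% of control (80.1% to 86.2%). Psmb6, the caspase-like site (chromosome 11, 70525324 to 70527858), had 7795 and 8097 counts in shGas6 and shControl, at 94.6% (91.7% to 97.6%). Psmb7, the trypsin-like site (chromosome 2, 38588046 to 38643952), had 9443 counts in shGas6 and 10045 in shControl, at 92.4% (89.8% to 95.1%). These genes were slightly lower in shGas6 too, with Psmb5 the furthest, and none reached 1.5-fold.

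Each inducible subunit replaces a known partner, so the pairs were compared directly. These ratios between genes do not depend on how the libraries were scaled. The ratio of Psmb9 to Psmb6 counts in shGas6 was 30.9% of that in shControl (22.9% to 41.2%). For Psmb8 over Psmb5 the figure was 57.2% (52.4% to 62.4%), and for Psmb10 over Psmb7 it was 57.4% (53.2% to 62.0%). The intervals of the last 2 pairs overlapped, and that of the Psmb9 pair lay below both. By TPM, which corrects for transcript length, Psmb9 made up 0.943% of the summed level of its pair in shGas6 and 2.88% in shControl. Psmb8 made up 11.0% of its pair in shGas6 and 17.8% in shControl, and Psmb10 8.64% and 14.1%. The constitutive member was thus the more abundant transcript of every pair in both libraries, and by most in the Psmb9 pair.

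**Figure D2:**
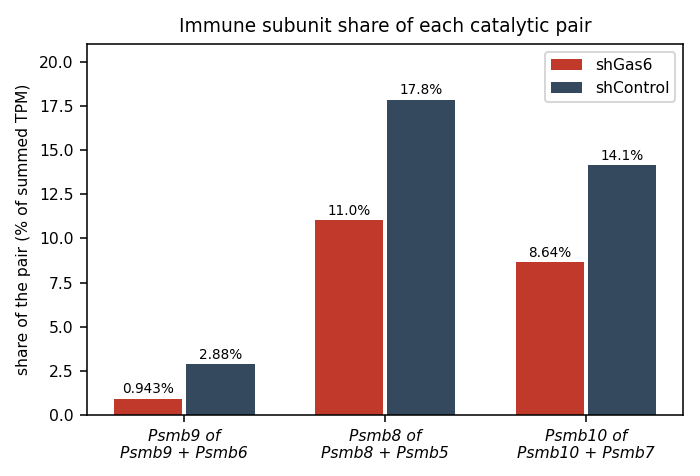
Share of the inducible subunit in the summed deposited TPM of each catalytic pair, in percent, with 1 library per bar. The share is lower in shGas6 in each pair, at 0.943%, 11.0% and 8.64%, against 2.88%, 17.8% and 14.1% in shControl.

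The PA28 activator genes differed in the same direction. Psme1 (PA28 alpha; chromosome 14, 55578494 to 55581527) had 3681 counts in shGas6 and 5924 in shControl, at 61.1% of control (58.6% to 63.7%). Psme2 (PA28 beta; chromosome 14, 55587440 to 55591101) had 4149 counts in shGas6 and 7128 in shControl, at 57.2% (55.1% to 59.5%). The products assemble into a mixed ring, and the ratio of Psme1 to Psme2 by TPM was 0.813 in shGas6 and 0.762 in shControl. Psme2 has a near-copy, Psme2b, whose longest coding transcript in GENCODE M21 is 99.4% identical to it over 794 aligned positions. Psme2b had 73 counts in shGas6 and 64 in shControl, and with both genes summed the log2 ratio of Psme2 was -0.79, against -0.81 alone. Psme1 and Psme2 were higher in level than the inducible catalytic subunits, at 149 and 184 TPM in shGas6 and 236 and 310 TPM in shControl.

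The activators that interferon does not induce stood at equal levels in both libraries within counting error. Psme3, the nuclear activator PA28 gamma, had 9059 counts in shGas6 and 9020 in shControl (98.7% of control, 95.9% to 102%). Psme4, the activator PA200, had 8553 counts in shGas6 and 8329 in shControl (101%, 97.9% to 104%). The ratio of Psme1 to Psme3 in shGas6 was 61.9% of that in shControl (58.8% to 65.1%), and that of Psme2 to Psme3 58.0% (55.2% to 60.8%).

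Because Psmb8 and Psmb9 lie in the MHC and Psme1 beside Psme2, the surrounding genes were read as well. Psmb9 starts 225 bases from Tap1 on the opposite strand, and Tap1, Psmb8 and Tap2 follow in that order. Tap1 and Tap2 form the peptide transporter of the endoplasmic reticulum. Tap1 was at 25.5 CPM in shGas6 and 34.1 CPM in shControl, 74.6% of control (69.4% to 80.2%), and Tap2 at 28.1 and 46.4 CPM, 60.4% (56.6% to 64.5%). All 4 genes of the block were lower, and Psmb9 differed more than the gene with which it shares its upstream stretch. Within 250 kb of Psmb9 there were 19 other measured genes, with a median log2 ratio of 0.02 and none lower than Psmb9. Whether counts were assigned by strand is not stated, so reads of Psmb9 and Tap1 that overlap near their starts could not be told apart.

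Around the PA28 genes the neighbours differed in both directions. Emc9, which lies between them and overlaps the end of Psme1 by 9 bases, was at 11.7 CPM in shGas6 and 14.4 CPM in shControl, 80.8% of control (72.4% to 90.1%). Rnf31, a subunit of the linear ubiquitin ligase complex, starts 611 bases beyond Psme2 and was at 43.7 CPM in shGas6 and 30.9 CPM in shControl, a log2 ratio of 0.50. Of the 21 other measured genes within 250 kb of Psme1, 11 were below 0 and the median was -0.09. Psme2 was the only 1 of them below Psme1.

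For Psmb10 the surroundings were lower as well. Of 19 other measured genes within 250 kb, 13 had a log2 ratio below 0, with a median of -0.30, and 1 was lower than Psmb10. With the median of the 50 nearest measured genes subtracted, its log2 ratio was -0.66 in place of -0.91. The part of the surroundings in this difference was not tested.

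**Figure D3:**
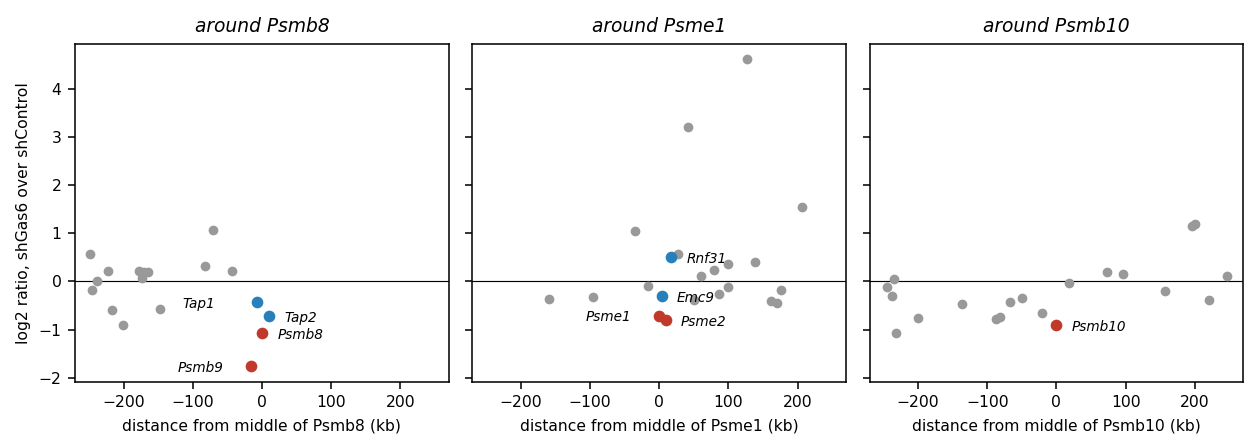
Log2 ratio (shGas6 over shControl) of measured genes within 250 kb, against distance in kb from the middle of Psmb8, Psme1 and Psmb10. Red points are subunit genes, blue points are named neighbours and grey points are other genes. Psmb9 is the lowest point around Psmb8, Psme2 the lowest around Psme1, and most grey points around Psmb10 lie below 0. No measured gene lies right of Tap2 in the first panel.

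The constitutive 20S core was slightly lower in shGas6. All 14 of its genes (Psma1 to Psma7 and Psmb1 to Psmb7) had a log2 ratio below 0, where 50.9% of all measured genes did and 52.6% of those of 50 CPM or more, and their median was -0.11. For 12 of the 14 the counting interval lay wholly below equality, which was also true of 40.3% of all measured genes and 47.0% of those of 50 CPM or more. The summed counts of the core were 115996 in shGas6 and 126656 in shControl, 90.0% of control (89.3% to 90.7%). None of the 14 was 1.5-fold lower. The count of 14 below 0 was 12 with the deposited TPM or DESeq2 scaling, which put Psma7 and Psmb3 just above 0. It was also 12 with the median of the 50 nearest measured genes subtracted, which put Psma1 and Psma5 above 0.

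Within the alpha ring, Psma2 stood apart. This alpha subunit had 8834 counts in shGas6 and 12383 in shControl, 70.1% of control (68.2% to 72.1%). Its nearest 50 measured genes on chromosome 13 had a median log2 ratio of -0.23, and with that subtracted its own ratio was -0.28 in place of -0.51. Psma6 had 7898 counts in shGas6 and 9540 in shControl, 81.4% (79.0% to 83.9%), with a local median of -0.01. The other alpha genes were between 91.8% and 98.5% of control. Psma7, the closest to equality, had 8714 counts in shGas6 and 8694 in shControl. The spread within the ring was thus set by Psma2 and Psma6.

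Psma3 gave different answers on the count and the TPM scale. Its counts, 10145 in shGas6 and 10868 in shControl, put it at 91.8% of control, whereas its deposited TPM values, 194 in shGas6 and 277 in shControl, put it at 70.0%. The transcript length that the deposited counts and FPKM imply for this gene was 2299 bases in shGas6 and 1707 in shControl. For 40 of the 42 subunit genes with counts in both libraries the implied lengths of the libraries lay within 5% of each other, and the exceptions were Psma3 and Psmb11. A ratio of implied lengths off by more than 25% was found in 1.77% of 13302 measured genes. The TPM of Psma3 therefore rests on lengths that differ between the libraries, and its count ratio does not.

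The non-catalytic beta subunits were close to equality. Psmb1 had 8647 counts in shGas6 and 9574 in shControl (88.8%, 86.2% to 91.4%), the lowest ratio of these 4. Psmb3 had 9797 counts in shGas6 and 9753 in shControl (98.7%, 96.0% to 102%). By TPM, Psmb3 was the most abundant transcript of all the subunits in both libraries, at 532 TPM in shGas6 and 520 TPM in shControl, with Psmb4 next to it at 503 TPM in shGas6 and 519 TPM in shControl.

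The subunits of the constitutive core were transcribed at similar levels per length. The highest and the lowest of the 14 differed by 2.74 times in shGas6 and 2.15 times in shControl. The lowest were Psma3 at 194 TPM in shGas6 and Psma1 at 242 TPM in shControl. That Psma3 value rests on its longer implied length in shGas6, and the next lowest there was Psma5 at 238 TPM. The 17 genes of the regulatory particle spanned 3.24 times in shGas6 and 2.83 times in shControl. The 3 inducible catalytic subunits together had 70.4 TPM in shGas6 and 139 TPM in shControl, against 936 TPM in shGas6 and 1001 TPM in shControl for the constitutive 3. With Psme1 and Psme2 added, the 5 inducible genes had 404 TPM in shGas6 and 685 TPM in shControl, 58.9% of control. The other 36 measured subunits had 8792 TPM in shGas6 and 9000 TPM in shControl, 97.7% of control.

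**Figure D4:**
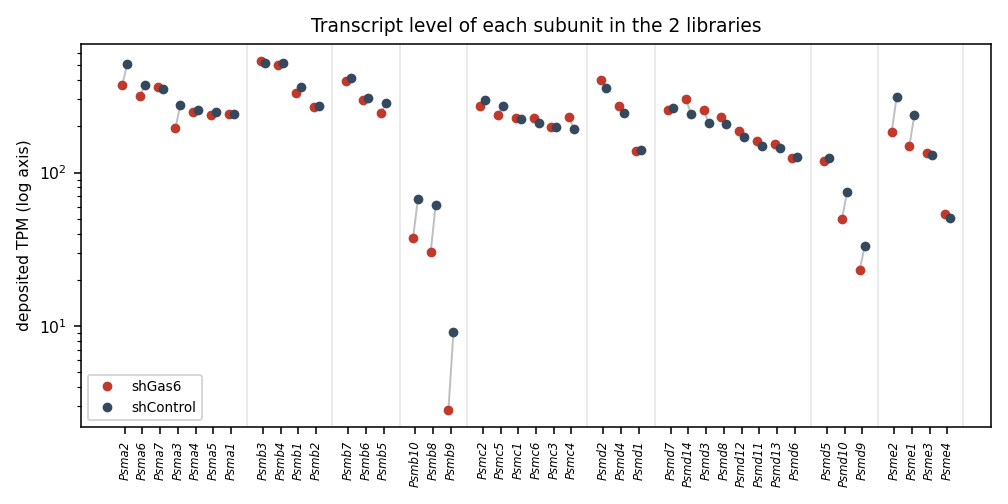
Deposited TPM (log axis) of each measured subunit in shGas6 (red, left of each pair) and shControl (dark, right), in the role groups of the text and ordered by the shControl level. Subunits of the constitutive core and the regulatory particle lie between 124 and 532 TPM, and Psmb10, Psmb8 and Psmb9 at 67.6 TPM or less in both libraries.

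In the 19S regulatory particle, ratios lay on both sides of equality. Of 17 genes of the base and the lid, 10 had a log2 ratio above 0 (49.1% of all measured genes did, and 47.4% of those of 50 CPM or more), and for 9 the counting interval lay wholly above equality (39.2% of all genes, and 41.9% of those of 50 CPM or more). For 6 it lay wholly below. The median log2 ratio was 0.08, and the summed counts of 175288 in shGas6 and 166616 in shControl gave 103% of control (103% to 104%). The shares were near the background, and the particle as a whole did not share the small difference of the core. The difference between the groups was not tested.

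Among the lid genes, those of the deubiquitinase and a scaffold subunit were highest. Psmd14, which encodes the deubiquitinase Rpn11 that removes ubiquitin chains at the entry of the core, had 11667 counts in shGas6 and 9561 in shControl, 120% of control (117% to 123%). Psmd3 (Rpn3) had 13916 counts in shGas6 and 11519 in shControl, 119% (116% to 122%). Psmd7 (Rpn8), the inactive partner of Psmd14, had 10277 counts in shGas6 and 10887 in shControl, 92.8% (90.3% to 95.3%). The products of Psmd14 and Psmd7 pair, yet their transcripts differed in opposite directions by small amounts. With the median of its 50 nearest genes subtracted, the log2 ratio of Psmd7 was 0.16 in place of -0.11, so that this contrast depends on the setting. Psmd6, Psmd8, Psmd11, Psmd12 and Psmd13 were between 94.6% and 107% of control.

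The base ATPases, which form a ring and unfold the substrate, differed among themselves. Psmc4 (Rpt3) had 8398 counts in shGas6 and 7039 in shControl, 117% of control (114% to 121%). Psmc5 (Rpt6) had 7673 counts in shGas6 and 8833 in shControl, 85.4% (82.8% to 88.1%), and Psmc2 (Rpt1) 10060 and 11205, 88.3% (85.9% to 90.7%). Psmc1, Psmc3 and Psmc6 lay between 96.4% and 106%. Psmc5 and Psmc2 thus had the lowest ratios of the regulatory particle, although Psmc2 was at a log2 ratio of 0.070 with its local median subtracted.

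Of the non-ATPase base subunits, Psmd2 and Psmd4 were slightly higher and Psmd1 slightly lower. Psmd2 (Rpn1), the docking site for ubiquitin shuttles, had the most counts of any subunit, 29987 in shGas6 and 27210 in shControl (108%, 107% to 110%). Psmd4 (Rpn10), a ubiquitin receptor, was at 107% (104% to 110%). Psmd1 (Rpn2) had 11401 counts in shGas6 and 11711 in shControl (95.7%, 93.3% to 98.2%), while the 50 genes nearest to it on chromosome 1 had a median log2 ratio of -0.54. With such a local median subtracted, each of the 3 changed sign, to log2 ratios of 0.48 for Psmd1, -0.082 for Psmd2 and -0.035 for Psmd4.

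Of the chaperones that assemble the base, Psmd9 and Psmd10 were lower by about the same amount. Psmd10 (gankyrin, also a binding partner of RB and MDM2) had 1819 counts in shGas6 and 2751 in shControl, 65.0% of control (61.2% to 69.0%). Psmd9 (p27) had 1510 counts in shGas6 and 2220 in shControl, 66.9% (62.6% to 71.4%). Psmd5 (S5b) had 5975 and 6346 counts in shGas6 and shControl, 92.6% (89.3% to 95.9%). Psmd9 lies on chromosome 5 among genes with a local median log2 ratio of -0.39, and its ratio was -0.19 with that subtracted. Psmd10, on chromosome X, had a local median of -0.10 and a ratio of -0.52 after subtraction. These were the lowest ratios outside the inducible genes.

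The RNA of the genes listed as regulators of proteasome transcription was higher in shGas6. Whether this bears on the subunit genes was not tested. Of the 8 genes of this list, all 8 had a log2 ratio above 0, where 49.1% of all measured genes did, and Nfe2l1 and Maff were past 2-fold higher, where 8.66% of all genes were. Their median log2 ratio was 0.55. Nfe2l1 encodes NRF1, which switches on proteasome genes when proteasome capacity is short. It had 32738 counts in shGas6 and 14750 in shControl, 2.18-fold higher (2.14 to 2.22). Ngly1, the glycanase, and Ddi2, the protease that process the NRF1 protein, were 1.59-fold (1.51 to 1.68) and 1.29-fold higher (1.21 to 1.37). Its small Maf partner Maff had 4531 counts in shGas6 and 1112 in shControl, 4.01-fold higher (3.75 to 4.28). Mafg and Mafk were 1.59-fold and 1.34-fold higher. Nfe2l2 (NRF2) was 1.14-fold higher (1.10 to 1.18), and Bach1 was 1.06-fold higher (1.01 to 1.12).

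Proteasome-associated factors differed in both directions. Of 15 measured genes, none was 2-fold higher or lower, 9 ratios were below 0 and 6 above, and the median was -0.14. Over all measured genes, 6.21% were 2-fold lower, 8.66% were 2-fold higher and 50.9% were below 0. Adrm1 (Rpn13), a ubiquitin receptor of the base, had 7592 counts in shGas6 and 5069 in shControl, 147% of control (142% to 153%). Uchl5, the deubiquitinase that docks on Adrm1, had 2816 counts in shGas6 and 4352 in shControl, 63.6% (60.6% to 66.7%). Receptor and enzyme thus differed in opposite directions. The 50 measured genes nearest to Uchl5 had a median log2 ratio of -0.38, beside -0.65 for Uchl5 itself. For Adrm1 the local median was 0.10, beside its own 0.56. The part of the surroundings in this contrast was not tested. Sem1, a small lid subunit that the symbol rule does not take, was at 81.4% (78.3% to 84.6%). Among the core assembly chaperones, Psmg1 was at 99.9% (93.3% to 107%) and Psmg2 at 84.3% (78.6% to 90.4%). Psmg3 was at 72.7% (65.9% to 80.2%) and Psmg4 at 83.0% (73.7% to 93.3%). Pomp, the maturation factor, was at 113% (109% to 116%).

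In the list of ubiquitin and delivery genes, Ubb and Rps27a were lower in shGas6 and the genes of the p97 segregase higher. Ubb, which encodes chains of ubiquitin, had 51131 counts in shGas6 and 71663 in shControl, 70.1% of control (69.3% to 70.9%). Rps27a, which encodes ubiquitin fused to a ribosomal protein, was at 86.1%. Vcp (p97), which extracts ubiquitinated proteins for the proteasome, was at 139% (136% to 141%). Its cofactors Nploc4 and Ufd1 were at 141% and 116%.

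Regulators of the inducible subunits did not share a direction. Of 16 measured interferon-pathway genes, 11 ratios were below 0 and 5 above, with a median of -0.08. Over all measured genes, 50.9% were below 0 and 49.1% above. Irf1, the factor that activates Psmb8, Psmb9 and Psmb10 after interferon, had 3861 counts in shGas6 and 2916 in shControl, 130% of control (124% to 137%). Both chains of the interferon gamma receptor were near equality, Ifngr1 at 97.0% and Ifngr2 at 95.6%. Nlrc5, the class I transactivator, was at 2.67% (1.92% to 3.61%), far below every subunit. The inducible subunits were lower and Irf1 RNA was higher, and a link between them was not tested.

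Genes that act on the peptides after the proteasome were split. In the transport and class I list, 8 of 11 ratios were below 0, 2 of the 11 were at least 2-fold lower (B2m and Erap1), and the median log2 ratio was -0.64. Over all measured genes, 50.9% were below 0 and 6.21% at least 2-fold lower. Erap1, which trims peptides in the endoplasmic reticulum, had 1356 counts in shGas6 and 3014 in shControl, 44.2% of control (41.4% to 47.2%). Among 11 peptidases the median was 0.08, with 7 ratios above 0 (49.1% of all genes). Tpp2, which trims long proteasome products, was at 148% (143% to 153%), Lnpep, an endosomal aminopeptidase of cross-presentation, at 158% (147% to 169%) and Nln, an oligopeptidase, at 63.9% (60.9% to 67.0%). Lap3, an aminopeptidase that interferon gamma induces, was at 84.7% (82.0% to 87.5%).

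**Figure D5:**
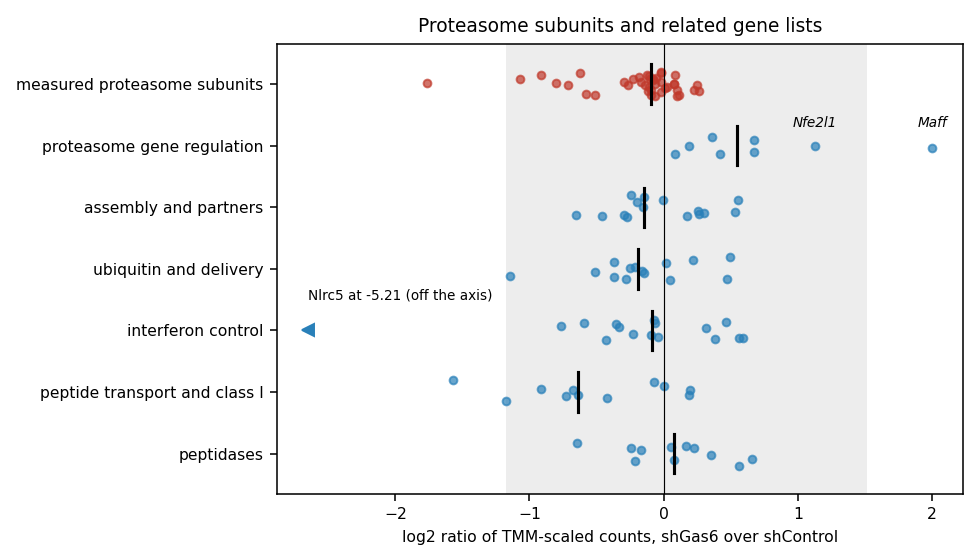
Log2 ratio of TMM-scaled counts, shGas6 over shControl, for the measured subunits (red) and 6 related gene lists (blue). Each point is a gene, black bars are medians, the grey band holds the central 90% of all measured genes, and the triangle marks Nlrc5, at -5.21 beyond the axis. The regulators of proteasome genes lie right of 0, with a median of 0.55, and the class I list has the lowest median, -0.64.

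Leukocytes use inducible subunits without stimulation, so their markers were read beside these results. Of 9 leukocyte markers, 3 were measured (Coro1a, Laptm5 and Cd74), and the list summed to 5.07 CPM in shGas6 and 3.76 CPM in shControl. Tyrobp was at 0 in both libraries, and Ptprc had 8 counts in shGas6 and 23 in shControl. Laptm5 was at 1.37 CPM in shGas6 and 0.157 CPM in shControl, Cd74 at 1.47 and 0.531 CPM, and Coro1a at 2.01 and 2.30 CPM. Psmb8 was at 18.1 CPM in shGas6 and 38.1 CPM in shControl, and Psmb9 at 1.22 CPM in shGas6 and 4.17 CPM in shControl. Each of these 3 markers was thus above Psmb9 in shGas6 and below it in shControl. None of 5 fibroblast markers was measured, with sums of 1.24 CPM in shGas6 and 0.393 CPM in shControl. Of 3 endothelial markers, Cdh5 was measured, at 3.73 CPM in shGas6 and 11.8 CPM in shControl, Pecam1 was under 1 CPM and Kdr at 0 in both. The leukocyte and epithelial sums were higher in shGas6 and the endothelial marker lower, and the part of these markers in the results was not tested.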

How the data were processed

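Poly(A) RNA was sequenced from 1 shGas6 and 1 shControl culture of YTN16 cells. Per the submitters' processing notes, reads were trimmed with Trimmomatic and GRCm38 (mm10) is the build. No source used here gives the aligner, the counter, its strand setting or the annotation release. The deposited counts are whole numbers per gene, 51807140 in shGas6 and 50756676 in shControl, and gave every ratio. The deposited TPM and FPKM values, which per the file headers the authors scaled for length and depth, gave levels compared between genes and alternatives.

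Counts were scaled with TMM (edgeR 4.0.16, R 4.3.3). Log2 ratios used a pseudocount of 0.5. Percentages and folds used none. Exact Clopper-Pearson 95% intervals of each gene's binomial split, and exact conditional intervals of ratios between genes, came from scipy 1.17.1 and cover counting error only. PCR copies of a molecule count as separate reads here. With 1 library a group no test was possible, and the procedure was checked on simulated data. The simulation drew counting error alone, so it cannot speak to differences between cultures. Alternatives were total-count, upper-quartile and DESeq2 1.42.0 scaling, a pseudocount of 5 on the counts, the deposited FPKM or TPM in place of them (pseudocount 0.1), filters of 1 count and 5 CPM, folds of 1.5 and 1.2, and subtraction of the median of the 50 nearest measured genes. Members and lists were chosen with earlier results of these data known. Every subunit may be named, and other genes come from fixed lists; exceptions are marked. Positions and promoter windows are from RefSeq on GRCm38.p6, matched by gene ID (43 of 43 subunits). Some items are not reported here.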

Additional observations from a re-analysis of the deposited data

How the results depend on the processing

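Of 288 values of 41 single subunits under the alternatives, 20 changed sign. Of these, 12 concerned the 6 subunits named here, whose counting interval included equality: Psma7, Psmb3, Psmc1 and Psme3 with the deposited TPM and DESeq2 scaling, and Psmd13 and Psme4 with upper-quartile scaling and the local median. The other 8 had an interval that excluded equality, and came with the median of the 50 nearest genes subtracted, which gave log2 ratios of 0.094 for Psma1, 0.042 for Psma5, 0.070 for Psmc2, 0.48 for Psmd1, -0.082 for Psmd2, -0.035 for Psmd4, 0.020 for Psmd6 and 0.16 for Psmd7. All 36 values of the 5 inducible subunits stayed below 0, from -1.81 to -0.66; the sum of Psme2 and Psme2b, chosen after seeing the data, is among them. The number of subunits at least 2-fold lower (2) was 1 at 5 CPM, which by construction leaves out Psmb9, 6 at 1.5-fold, 10 at 1.2-fold and 1 with the whole counting interval beyond 2-fold. The number at least 2-fold higher was 0 under every alternative. The median over all subunits (-0.09) was -0.034 with the deposited TPM, and that of the constitutive catalytic subunits (-0.11) was -0.066 with TPM and -0.16 with upper-quartile scaling. The median of all measured genes was 0.04 with TPM and -0.05 with upper-quartile scaling. The core median ranged from -0.15 to -0.05 and that of the regulatory particle from 0.04 to 0.11. No paired analysis was possible because each group has 1 library. Psmb9, with 63 counts in shGas6, had the least precise ratio of the measured subunits.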
